A study of Mus musculus with 22 samples.

Results

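The genes described here are 9 members of the YAP/TEAD pathway, Yap1, Wwtr1, Tead1, Tead4, Ankrd1, Amotl2, Ajuba, Lats2 and Axl. They are named by symbol, with no threshold on their values, and are 9 of the 16235 genes listed in the deposited count tables. The choice was made with earlier results of these data known. Messenger RNA of the whole pancreas was sequenced from 22 C57Bl/6 mice in 8 groups to ask how loss of Ehmt2 (G9a, a histone H3 lysine 9 methyltransferase) in pancreatic epithelium changes maturation and acute pancreatitis. Every animal, controls included, carried a Cre driver. In Pdx1-Cre mice the recombinase is a transgene under a Pdx1 promoter, active in the pancreatic epithelium including endocrine cells, and in P48-Cre mice (P48Cre/+) it replaces 1 copy of Ptf1a. Untreated Pdx1-Cre mice were sampled on postnatal (PN) day 10, 3 of them Ehmt2+/+ and 3 Ehmt2fl/fl, and as young adults (YA), 2 of them Ehmt2+/+ and 3 Ehmt2fl/fl. The study's methods give the age as 4 weeks for the YA mice and also for the mice with pancreatitis described next. Acute pancreatitis was induced with caerulein, a cholecystokinin analog. The Pdx1-Cre mice treated were 4 Ehmt2+/+ and 2 Ehmt2fl/fl, and the P48-Cre mice 2 Ehmt2+/+ and 3 Ehmt2fl/fl. These mice were fasted for 12 h, received 8 hourly intraperitoneal injections of 50 µg per kg, and were euthanized 18 h after the first of them. The YA libraries carry no treatment label, so the fast, the injections and the cohort go with caerulein and cannot be told apart from it.

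YAP1 and its paralog TAZ, the product of Wwtr1, are coactivators that bind DNA through the TEAD factors. In the Hippo pathway the kinases LATS1 and LATS2 phosphorylate YAP1 and TAZ and hold them in the cytoplasm. When the kinases are inactive the coactivators enter the nucleus, and genes such as Ankrd1, Ccn1, Ccn2, Amotl2, Ajuba, Lats2 and Axl are transcribed. Amotl2 and Lats2 encode inhibitors of YAP1, so part of the output of the pathway is negative feedback, whereas AJUBA is a LIM protein that restrains the LATS kinases. In the adult pancreas YAP1 is known chiefly from duct and stroma, and it appears in acinar cells during pancreatitis and acinar-to-ductal metaplasia.

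TEAD factors recognize the letters GGAATG, or CATTCC on the other strand. RefSeq promoters on GRCm38.p6 were found for 7 of the 9 genes, all but Tead1 and Tead4. The letters were present within the 250 bases before the start in 6 of these 7 genes (all but Lats2). Counted by promoter, they were in 7 of 9, against 4153 of 32851 promoters (12.6%) in the whole table. Several of the genes were listed as known targets of the pathway, so this share is not separate support. Ankrd1 and Ajuba held 2 matches each, a feature of 1.02% of all promoters. Their matches are shown because these are the genes with the largest genotype differences after caerulein, and the match of Yap1 is shown as that of a gene whose RNA hardly varied. Capitals mark the match.
Ankrd1, 210 bases before the start, chr19:36120037-36120066, minus strand: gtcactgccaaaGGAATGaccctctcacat
Ankrd1, 123 bases before the start, chr19:36119950-36119979, minus strand: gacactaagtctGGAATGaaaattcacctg
Ajuba, 186 bases before the start, chr14:54577830-54577859, minus strand: cgttgatggataCATTCCacagtgcccctc
Ajuba, 164 bases before the start, chr14:54577808-54577837, minus strand: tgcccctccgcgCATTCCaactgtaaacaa
Yap1, 141 bases before the start, chr9:8004720-8004749, minus strand: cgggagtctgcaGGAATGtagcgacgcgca
Both matches of Ankrd1 lie in an exon annotated by GENCODE vM21, upstream of the RefSeq start. The AP-1 letters TGANTCA, which read the same on both strands, were in 6.75% of all promoters and in none of the promoters of these genes. A match is a string of letters, and no binding was measured here.

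Library totals ranged from 14229980 to 40321967 counts. Levels are given as CPM, the counts-per-million unit, of the effective library size, that is, the library total adjusted by the TMM method so that most genes have like values. This adjustment matters because digestive enzyme transcripts took 80.3% to 85.1% of counts in YA libraries, 52.9% to 59.7% in PN libraries and 40.2% to 64.7% after caerulein. A gene passed when its Benjamini-Hochberg adjusted p over all genes tested in the comparison (FDR, from the quasi-likelihood F-test of edgeR) was under 0.1 and its change was at least 2-fold. Ehmt2 did not pass with genotype in whole pancreas. It was at 57.1 to 58.0 CPM in treated Ehmt2fl/fl and 60.8 to 68.8 CPM in treated Ehmt2+/+ pancreas (Pdx1-Cre), ranges that did not overlap, and its log2 difference was -0.21 ± 0.22 (SE, FDR 0.667). Counts over the whole gene do not isolate the deleted exons and include cells without recombination, so they do not check the labels. Y-linked counts read all 4 treated Ehmt2+/+ mice of the Pdx1-Cre cohort as female and both Ehmt2fl/fl mice as male, so sex and genotype cannot be told apart within that driver. In the P48-Cre groups 1 female was present in each genotype. Each library was also given a long-short balance, the log2 level of its long genes minus that of its short genes relative to the average library, which ran from -0.85 to 0.52.

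**Figure D1:**
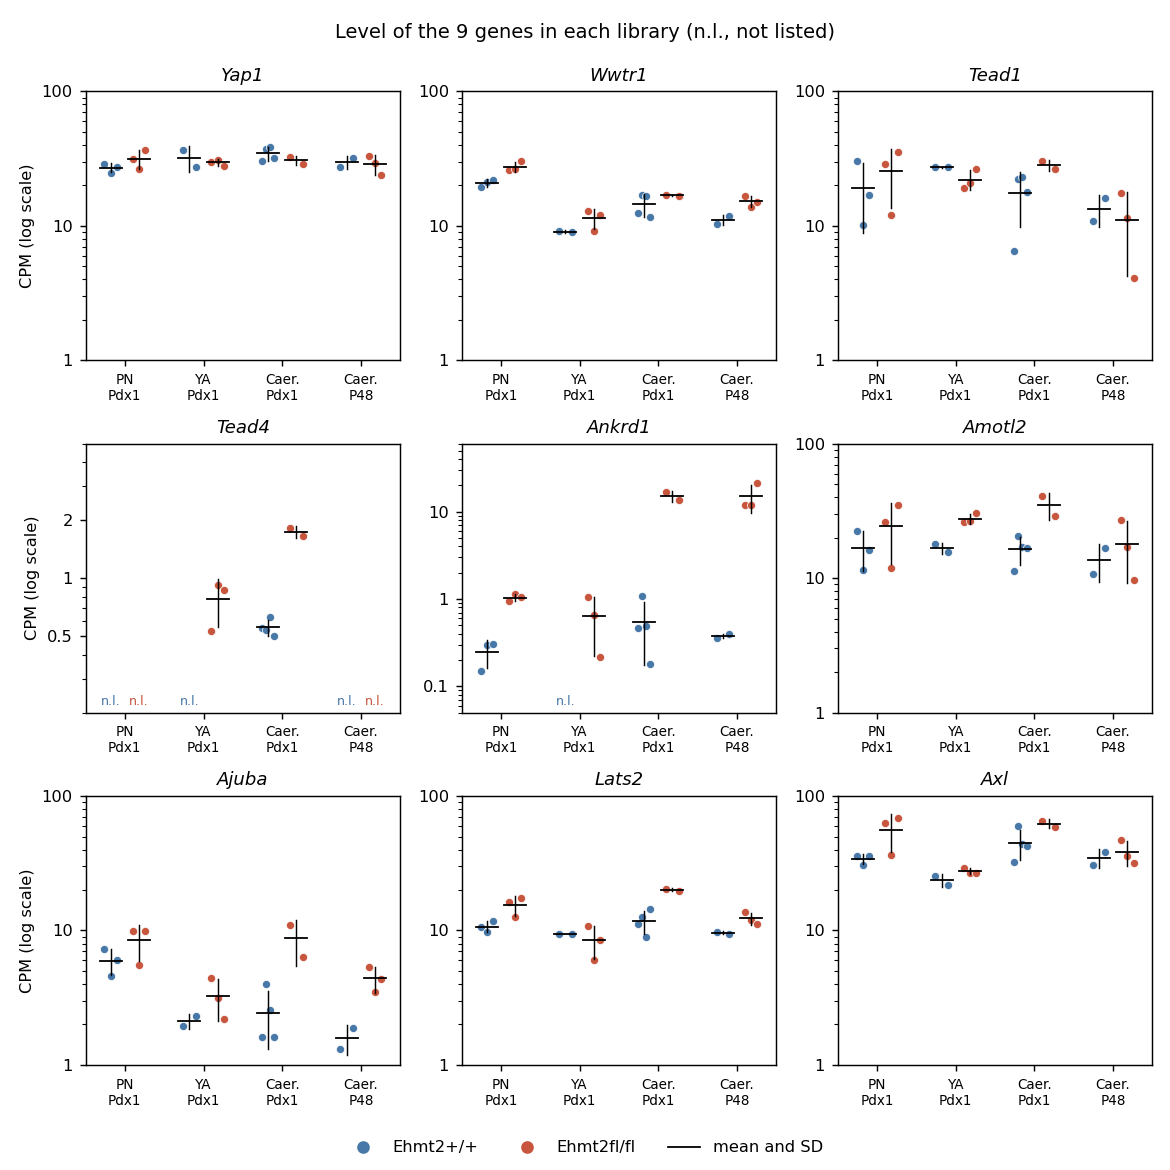
Level of each of the 9 genes in each library, in CPM on a log axis, for postnatal (PN), young adult (YA) and caerulein-treated (Caer.) mice with the Cre driver below. Points are mice, lines are group means with SD, and n.l. marks groups for which the gene was not listed. Yap1 stayed between 23.9 and 38.8 CPM in all 22 libraries, while Ankrd1 was at least 11.8 CPM in all 5 treated Ehmt2fl/fl mice and at most 1.13 CPM in every other library for which it was listed.

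After caerulein, Ehmt2fl/fl pancreas held far more Ankrd1 RNA than Ehmt2+/+ pancreas with either Cre driver. Ankrd1 (ENSMUSG00000024803.9, chr19:36111961-36120099 on GRCm38, minus strand) encodes an ankyrin repeat protein of stressed muscle and is a widely used readout of YAP1 activity. With Pdx1-Cre it was at 0.46, 1.08, 0.49 and 0.18 CPM in the 4 Ehmt2+/+ mice, which is 11, 38, 14 and 5 reads, and at 16.7 and 13.5 CPM in the 2 Ehmt2fl/fl mice, which is 755 and 671 reads. With P48-Cre it was at 0.36 and 0.40 CPM in Ehmt2+/+ mice, 8 reads in each, and at 11.8, 12.0 and 21.1 CPM in Ehmt2fl/fl mice. The genotypes did not overlap with either driver, and every Ehmt2fl/fl library was above 11 CPM where no Ehmt2+/+ library passed 1.08 CPM. The log2 difference was 4.70 ± 0.48 (SE, FDR 0.00114) with Pdx1-Cre, a fold of 26.0. It was 5.29 ± 0.66 (FDR 0.00421) with P48-Cre, a fold of 39.0. With driver as a covariate it was 4.93 ± 0.38 (FDR 3.26e-05), and this call held under every alternative, with an FDR of at most 0.000846. The Ehmt2+/+ levels rest on few reads, so the size of the fold is less certain than its presence. Ankrd1 was listed after caerulein only beside the Ehmt2fl/fl libraries in which it was high, which favoured a difference.

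Ajuba (ENSMUSG00000022178.11, chr14:54567472-54577558, minus strand) rose as well, by a smaller step. It was at 1.60, 4.00, 2.56 and 1.61 CPM in Ehmt2+/+ and 11.1 and 6.402 CPM in Ehmt2fl/fl pancreas with Pdx1-Cre. With P48-Cre it was at 1.31 and 1.88 CPM in Ehmt2+/+ and 5.37, 3.47 and 4.38 CPM in Ehmt2fl/fl mice. All Ehmt2fl/fl libraries were above all Ehmt2+/+ libraries of the same driver. The log2 difference was 1.65 ± 0.29 (FDR 0.00341) over both drivers, and 1.80 ± 0.40 (FDR 0.0284) with Pdx1-Cre. With P48-Cre it was 1.47 ± 0.47 (FDR 0.122), which did not pass, although DESeq2 passed it (FDR 0.0410, alternatives 0.00596 to 0.375). The Pdx1-Cre call was lost without Ehmt2fl/fl replicate 1 (log2 1.35, FDR 0.360) and with sex as a covariate (1.90, FDR 0.220), over alternatives from 0.000770 to 0.360.

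Tead4 (ENSMUSG00000030353.15, chr6:128224288-128300823, minus strand), which encodes a TEAD factor, was listed for both treated Pdx1-Cre groups and for YA Ehmt2fl/fl mice, and for no other group. It was at 0.55, 0.54, 0.63 and 0.50 CPM in treated Ehmt2+/+ mice and at 1.83 and 1.65 CPM in treated Ehmt2fl/fl mice. After caerulein Tead4 was listed only beside the Ehmt2fl/fl libraries in which it was high, which favoured a difference. These treated groups did not overlap and the log2 difference was 1.66 ± 0.27 (FDR 0.0208), a fold of 3.15. It rested on both Ehmt2fl/fl libraries, since the FDR was 0.236 without replicate 1 and 0.131 without replicate 2.

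Lats2, the kinase that YAP1 itself induces, was at 11.2, 12.5, 8.96 and 14.4 CPM in Ehmt2+/+ and 20.4 and 19.7 CPM in Ehmt2fl/fl pancreas with Pdx1-Cre. With P48-Cre it was at 9.77 and 9.49 CPM against 13.7, 11.9 and 11.2 CPM. Again the genotypes did not overlap, but the difference stayed under 2-fold, at 0.57 ± 0.14 (log2, FDR 0.0192) over both drivers. Amotl2, an angiomotin that sequesters YAP1, was at 11.3 to 20.5 CPM in Ehmt2+/+ (n = 4) and 40.6 and 29.2 CPM in Ehmt2fl/fl pancreas with Pdx1-Cre. Its log2 difference of 1.06 ± 0.39 did not pass (FDR 0.141), although DESeq2 (FDR 0.0638) and a fit of these 2 groups alone (FDR 0.0547) passed it, over alternatives from 0.00593 to 0.692. With P48-Cre it overlapped, at 10.7 and 16.8 CPM against 27.2, 17.1 and 9.66 CPM. Axl, a receptor tyrosine kinase for GAS6, was at 32.4 to 59.5 CPM in Ehmt2+/+ and 65.7 and 58.9 CPM in Ehmt2fl/fl pancreas with Pdx1-Cre, and its groups overlapped with both drivers.

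Counted together, 3 of the 9 genes rose with genotype under Pdx1-Cre (Ankrd1, Ajuba and Tead4) and none fell, where 7.09% of all tested genes passed and 4.22% passed as higher. Under P48-Cre 1 of 8 rose (Ankrd1), against 5.96% of all genes in either direction and 4.01% as higher. With driver as a covariate 2 of 8 rose (Ankrd1 and Ajuba), against 8.07%, or 5.32% as higher. Ankrd1 and Tead4 were left out of the deposited comparison of treated with untreated Ehmt2+/+ mice, and after caerulein they were listed only beside the Ehmt2fl/fl libraries in which they were high. A gene listed in this way had to differ, so these counts describe the genes and are not support. The drivers share no library, and the term for a difference between them passed for none of the 8 genes, with 0 at an unadjusted p under 0.05 in edgeR and 0 passing in DESeq2. In that term 0 of 14440 genes passed in edgeR (0%), where 702 had an unadjusted p under 0.05, and 2 passed in DESeq2. For Ankrd1 the term was 0.58 ± 0.78 on the log2 scale, too wide an error to show that the drivers gave a like difference.

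**Figure D2:**
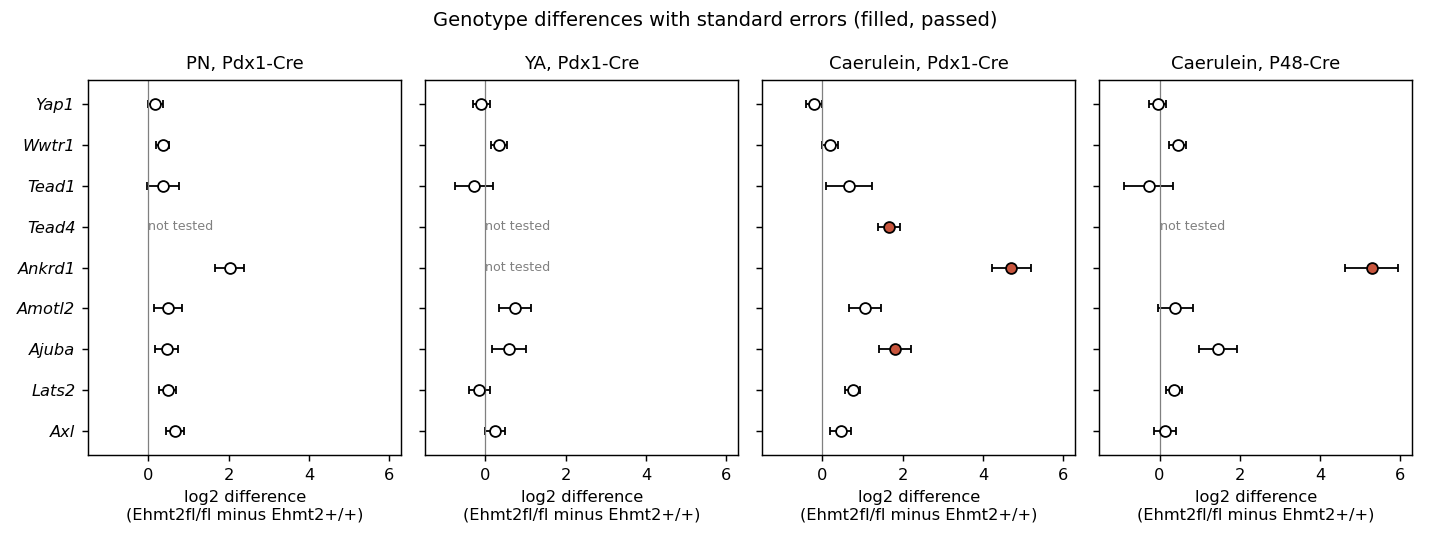
Log2 difference of each gene between the genotypes (Ehmt2fl/fl minus Ehmt2+/+), with its standard error, for 4 settings. Filled points passed an FDR under 0.1 with a change of at least 2-fold: Tead4, Ankrd1 and Ajuba with Pdx1-Cre after caerulein and Ankrd1 with P48-Cre. Yap1 lay between -0.20 and 0.17 in all 4.

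The coactivators did not pass beside these genes. Yap1 was at 30.2, 37.6, 38.8 and 32.1 CPM in Ehmt2+/+ and 32.4 and 29.1 CPM in Ehmt2fl/fl pancreas with Pdx1-Cre after caerulein, and at 27.6 and 31.9 against 33.2, 29.1 and 23.9 CPM with P48-Cre. The genotypes overlapped with both drivers and the log2 difference over both was -0.13 ± 0.14 (FDR 0.621). Across the 8 groups the highest mean of Yap1 was 1.28 times the lowest, and every neighbour in that order overlapped. Wwtr1 was at 11.7 to 16.8 CPM against 17.0 and 16.7 CPM with Pdx1-Cre, and at 10.4 and 11.8 against 16.7, 13.8 and 15.1 CPM with P48-Cre, where the genotypes did not overlap. Its log2 difference over both drivers was 0.31 ± 0.15 (FDR 0.201). Tead1 was at 6.49, 22.2, 23.3 and 17.9 CPM in Ehmt2+/+ and 30.3 and 26.4 CPM in Ehmt2fl/fl pancreas with Pdx1-Cre. With P48-Cre its order was not the same, at 10.8 and 16.0 against 17.5, 11.4 and 4.06 CPM, and the log2 difference over both drivers was 0.23 ± 0.41 (FDR 0.783). Tead1 has the longest transcript model of the 9 genes, 13570 bases, and in the treated P48-Cre Ehmt2fl/fl mice it fell in the same order as the long-short balance, which was -0.13, -0.37 and -0.85. Yap1, Amotl2, Lats2 and Axl fell in that order too. Ankrd1 rose along it (11.8, 12.0 and 21.1 CPM), and Wwtr1 and Ajuba followed neither order. These are RNA levels, and neither the localization nor the phosphorylation of YAP1 was measured.

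Compared per kilobase of transcript, Axl was the most abundant of the 9 genes in every group, at 12.4 mean CPM per kb in treated Pdx1-Cre Ehmt2fl/fl mice, and Yap1 and Wwtr1 were at 3.32 and 3.52 there. Ankrd1 was at 0.19 mean CPM per kb in treated Pdx1-Cre Ehmt2+/+ mice, rank 8 of 9, and at 5.23 in Ehmt2fl/fl mice, rank 3. With P48-Cre it was at 0.13 in Ehmt2+/+ mice, rank 8 of 8, and at 5.19 in Ehmt2fl/fl mice, rank 2.

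Other targets of the pathway were read from a list of 17 genes, of which 16 were tested. This list, like those of partners and kinase core below, was chosen with earlier results of these data known. Its counts and median therefore describe the genes and are not support. With driver as a covariate 6 of the 16 rose with genotype after caerulein and none fell, where 5.32% of all genes passed as higher. Under Pdx1-Cre 5 rose, where 4.22% of all genes did, and under P48-Cre 4, where 4.01% did. The 4 with the lowest FDR were Ccn1 and Ccn2, which encode matricellular proteins, F3, which encodes tissue factor, and Gadd45a, a stress-induced gene. Ccn1 was at 2.53, 4.17, 3.64 and 2.58 CPM in Ehmt2+/+ and 28.0 and 18.1 CPM in Ehmt2fl/fl pancreas with Pdx1-Cre, and at 2.67 and 2.47 against 13.9, 12.2 and 15.7 CPM with P48-Cre. Its genotypes did not overlap, and the log2 difference over both drivers was 2.63 ± 0.19 (FDR 2.88e-05), a fold of 6.21. F3 was at 1.63 to 2.45 CPM in the treated Ehmt2+/+ mice of both drivers and at 7.83 to 14.9 CPM in all 5 Ehmt2fl/fl mice. That is a log2 difference of 2.41 ± 0.21 (FDR 6.11e-05). Ccn2 was at 2.11, 5.98, 4.45 and 2.83 CPM against 23.4 and 20.1 CPM with Pdx1-Cre, and at 3.53 and 2.37 against 10.3, 8.55 and 13.6 CPM with P48-Cre. Its log2 difference was 2.19 ± 0.28 (FDR 0.000623) over both drivers. Gadd45a rose by 1.495 ± 0.24 (FDR 0.00197), but within 1 driver its call was lost without either Pdx1-Cre Ehmt2fl/fl library (FDR 0.205 and 0.227) or either P48-Cre Ehmt2+/+ library (FDR 0.134 and 0.219). Within P48-Cre, Ccn2 (1.87 ± 0.44, FDR 0.0468) was lost without either Ehmt2+/+ library, with an FDR of 0.124 without replicate 1 and 0.366 without replicate 2. The median of the 16 was 0.56 over both drivers, beside -0.01 for all genes.

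Partners of YAP1 and TEAD, a list of 18 genes that were all tested, moved in both directions. Tead2, a TEAD factor, was the gene that fell. It was at 73.7, 59.3, 80.2 and 52.2 CPM in treated Ehmt2+/+ mice and 19.4 and 17.6 CPM in Ehmt2fl/fl pancreas with Pdx1-Cre, and at 61.4 and 81.5 against 22.5, 28.2 and 29.0 CPM with P48-Cre. The groups were far apart with both drivers, and Tead2 changed by -1.66 ± 0.17 (log2, FDR 0.000172) with driver as a covariate. Within P48-Cre it was -1.43 ± 0.22 (FDR 0.0109) and was lost without Ehmt2+/+ replicate 2 (FDR 0.143). Vgll3, which encodes a TEAD cofactor of the vestigial-like family, rose by 1.11 ± 0.20 (FDR 0.00352) over both drivers, and was under 2-fold without Pdx1-Cre Ehmt2fl/fl replicate 1 (log2 0.96). Among 17 genes of the Hippo kinase core, which hold the kinases Stk3, Stk4 and Lats1 with their adaptors, 0 passed with genotype after caerulein in edgeR or in DESeq2, where 8.07% of all genes passed over both drivers. Over both drivers 2 of them had an unadjusted p under 0.05, beside 3927 of 14440 genes.

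**Figure D3:**
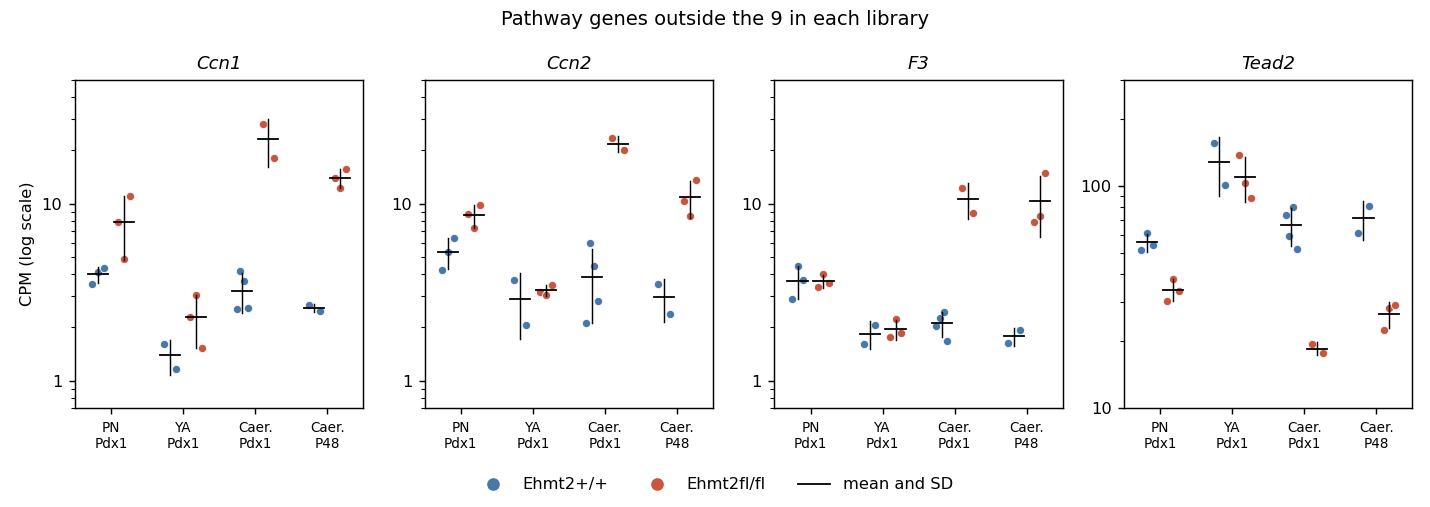
Level of Ccn1, Ccn2, F3 and Tead2 in each library, in CPM on a log axis, laid out as for the 9 genes. After caerulein Ccn1, Ccn2 and F3 were higher and Tead2 was lower in every Ehmt2fl/fl mouse than in every Ehmt2+/+ mouse of the same driver.

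**Figure D4:**
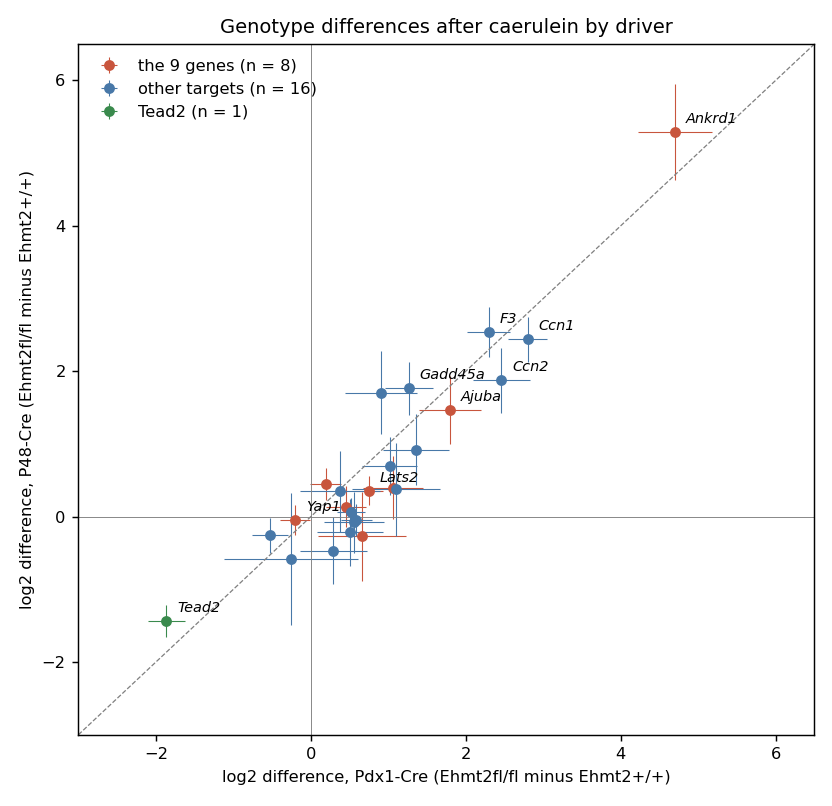
Log2 genotype difference after caerulein with Pdx1-Cre (horizontal) and with P48-Cre (vertical), with standard errors, for 8 of the 9 genes, 16 other targets and Tead2. The dashed line marks equal differences. Ankrd1 lay at 4.70 and 5.29 and Tead2 at -1.86 and -1.43.

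Markers of other cell types moved with genotype in the same libraries, and fewer cells of a type cannot be told apart from less RNA per cell in whole tissue. Over both drivers 5.32% of all genes passed as higher and 8.07% in either direction. Of 15 acinar markers 12 fell and none rose. Of 10 macrophage markers 8 rose, and their summed level was 248 to 423 CPM in treated Ehmt2+/+ and 557 to 900 CPM in treated Ehmt2fl/fl mice of both drivers. Of 6 tested neutrophil markers 5 rose. Of 11 duct markers 3 rose and 1 fell, and of 12 fibroblast and stellate cell markers 2 rose. Of 8 islet markers 2 rose, and 3 with Pdx1-Cre alone, where the summed level of the 7 with counts in all libraries was 214 to 840 CPM for Ehmt2+/+ against 916 to 1955 CPM for Ehmt2fl/fl. The summed level of the stellate markers was 531 to 1529 CPM against 1308 to 2114 CPM with Pdx1-Cre, and 573 to 666 against 393 to 708 CPM with P48-Cre, and Ankrd1 had a mean of 15.09 CPM in the Ehmt2fl/fl mice of Pdx1-Cre and 14.98 CPM in those of P48-Cre. Ankrd1 is also a gene of muscle, and the 2 muscle markers with counts in all libraries had a summed level of 14.7 to 24.8 CPM against 17.5 to 19.6 CPM with Pdx1-Cre, which overlapped, and of 14.6 to 16.2 against 18.9 to 25.2 CPM with P48-Cre, which did not. The part of these cells in the target genes was not tested.

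Genes passing with caerulein, 0 of 7 in Ehmt2+/+ and 5 of 9 in Ehmt2fl/fl mice, were counted over unlike sets. Ankrd1 and Tead4 passed in Ehmt2fl/fl mice and could not be tested in Ehmt2+/+ mice, being unlisted for the untreated ones. A caerulein response that differed between the genotypes was not shown for any of the 7 genes tested for it. In Ehmt2+/+ mice 0 of 7 passed in edgeR, where 20.0% of all tested genes did, with 2 at an unadjusted p under 0.05 and 0 passing in DESeq2. Of all 13950 genes tested in edgeR, 5785 had an unadjusted p under 0.05. Axl went from 25.5 and 21.9 CPM in YA mice to 32.4, 59.5, 44.2 and 42.3 CPM, a log2 difference of 0.93 ± 0.22 (FDR 0.00945) that stayed under 2-fold. Without YA replicate 1 or without treated replicate 1 it reached 1.08 and 1.07 and passed. Wwtr1 went from 9.20 and 8.93 CPM to 12.5, 16.8, 16.7 and 11.7 CPM (0.69 ± 0.22, FDR 0.0318). Among other targets, 4 of 16 rose in Ehmt2+/+ mice, where 1453 of 13950 genes did, led by Gadd45a (2.89 ± 0.47, FDR 0.000961). Ccn1 (1.25 ± 0.39, FDR 0.0324) was lost without YA replicate 2 (FDR 0.195).

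In Ehmt2fl/fl mice 5 of 9 rose after caerulein and none fell, where 33.2% of tested genes passed and 18.5% passed as higher. This comparison shares the treated Ehmt2fl/fl libraries with the genotype comparison above and is not separate support. Ankrd1 went from 1.06, 0.66 and 0.22 CPM (6, 5 and 2 reads) in YA mice to 16.7 and 13.5 CPM, a log2 difference of 4.61 ± 0.36 (FDR 3.56e-05). Lats2 went from 10.7, 6.07 and 8.51 CPM to 20.4 and 19.7 CPM (1.27 ± 0.24, FDR 0.00148). Axl went from 29.2, 26.9 and 27.0 CPM to 65.7 and 58.9 CPM (1.18 ± 0.22, FDR 0.00136). The treated and untreated mice did not overlap for these 3 genes or for Ajuba, Tead4, Wwtr1 and Tead1, while Yap1 and Amotl2 overlapped. Ajuba, at 4.41, 3.17 and 2.18 CPM before and 11.1 and 6.402 CPM after, changed by 1.46 ± 0.43 (FDR 0.0169) and was lost without treated replicate 1 (1.01, FDR 0.163). Tead4, at 0.53, 0.92 and 0.87 CPM before and 1.83 and 1.65 CPM after, changed by 1.06 ± 0.33 (FDR 0.0310). That call was lost in DESeq2 (FDR 0.109), with the long-short balance as a covariate (0.53, FDR 0.622), without YA replicate 1 (0.87) and without treated replicate 1 (FDR 0.125). Among other targets 7 of 16 rose, with log2 differences of 3.35 for Ccn1, 2.75 for Ccn2, 2.44 for F3 and 2.44 for Gadd45a. Of the 18 partners 3 rose and 1 fell, and of the 17 core genes 2 rose and 1 fell, shares below the 33.2% of all genes. Tead2 was at -2.55 ± 0.28 (FDR 4.71e-05) and Mob1a, a LATS coactivator, at 1.65 ± 0.21 (FDR 0.000104).

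The test of whether the caerulein difference itself differed by genotype passed for 0 of 7 genes in edgeR and 0 in DESeq2, where 1.25% of all genes passed in edgeR. In edgeR 1 of the 7 had an unadjusted p under 0.05, beside 1894 of 13468 genes. Ankrd1 and Tead4 could not be tested, since they were not listed for YA Ehmt2+/+ mice. Lats2 came closest, at 0.93 ± 0.34 (log2, unadjusted p 0.0185, FDR 0.253). Yap1 was at -0.06 ± 0.25. Of the other targets 1 of 16 passed (3 in DESeq2). This was F3, at 2.24 ± 0.39 (FDR 0.0374), from 1.61 and 2.07 CPM in YA Ehmt2+/+ and 1.76, 2.24 and 1.85 CPM in YA Ehmt2fl/fl mice, and it was lost with sex as a covariate (FDR 0.239), without YA Ehmt2+/+ replicate 2 (FDR 0.199) and without treated Ehmt2fl/fl replicate 1 (FDR 0.206). Ccn1 (2.11 ± 0.53, FDR 0.115) and Ccn2 (2.30 ± 0.58, FDR 0.113) did not pass, though DESeq2 passed both (FDR 0.0289 and 0.0158). The YA libraries held few reads of these genes, 10 to 17 of F3, 9 to 23 of Ccn1 and 16 to 32 of Ccn2.

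Before any treatment none of the genes tested, 8 at PN and 7 at YA, passed with genotype in edgeR, and Tead4 was tested at neither age. At PN day 10, 0 of 8 genes passed in edgeR, where 0.679% of all tested genes did, with 3 at an unadjusted p under 0.05 and 1 passing in DESeq2. Of all 13394 genes tested in edgeR, 1344 had an unadjusted p under 0.05. The gene DESeq2 passed was Ankrd1, at 0.15, 0.30 and 0.30 CPM in Ehmt2+/+ mice (6, 10 and 9 reads) and 0.94, 1.13 and 1.05 CPM in Ehmt2fl/fl mice (20, 29 and 34 reads). The genotypes did not overlap, and the log2 difference of 2.02 ± 0.36 had an FDR of 0.101, just over the threshold. It passed in DESeq2 (FDR 0.00558), under library totals, with the long-short balance as a covariate (FDR 0.0141) and without Ehmt2fl/fl replicate 2 (FDR 0.0782), and its FDR ranged from 0.00558 to 0.456 over all alternatives. Axl was at 36.1, 30.7 and 35.7 CPM against 62.6, 36.2 and 68.6 CPM (0.66 ± 0.22, FDR 0.352), and Lats2 at 10.7, 9.69 and 11.7 against 16.2, 12.5 and 17.4 CPM (0.48 ± 0.21, FDR 0.481). Each pair of groups was separate in range, but the difference did not pass. All 8 estimates were above 0, with a median of 0.47 beside 0.00 for all genes. Markers of other cells leaned as well, though none of these lists had a gene that passed, with 11 of 12 stellate markers above 0 (median 0.70), 9 of 10 endothelial markers above 0 (0.39) and 0 of 8 islet markers above 0 (-1.13). The summed stellate level was 2444 to 3258 CPM for Ehmt2+/+ against 2573 to 6508 CPM for Ehmt2fl/fl, and the part of these cells was not tested. Tead1 ranged over 10.1 to 30.3 CPM within Ehmt2+/+ and 12.1 to 35.2 CPM within Ehmt2fl/fl mice, and its lowest library in each genotype was replicate 2, which also had the lowest long-short balance there (-0.57 and -0.24). Amotl2 had the same lowest libraries. With that balance as a covariate the PN differences of Tead1 and Amotl2 were -0.22 ± 0.16 and -0.01 ± 0.20, against 0.36 ± 0.41 and 0.49 ± 0.34 without it. Of the other targets 0 of 16 passed at PN in edgeR or DESeq2, with 8 at an unadjusted p under 0.05, beside 1344 of 13394 genes. Ccn1 had the lowest FDR, at 3.51, 4.12 and 4.33 CPM against 7.86, 4.85 and 11.04 CPM (0.94 ± 0.31, FDR 0.325), and it passed without Ehmt2fl/fl replicate 2 (1.19, FDR 0.0530).

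In YA mice 0 of 7 genes passed with genotype in edgeR or in DESeq2, and 0 had an unadjusted p under 0.05, where 0.328% of all genes passed. Amotl2 had the largest estimate, at 17.9 and 15.5 CPM in Ehmt2+/+ and 26.1, 26.5 and 30.4 CPM in Ehmt2fl/fl mice (0.74 ± 0.40, FDR 0.663). Yap1 was at 37.0 and 27.3 CPM against 29.8, 31.1 and 28.0 CPM (-0.10 ± 0.21, FDR 0.978). No target passed either in edgeR or in DESeq2, 0 of 16, with 1 at an unadjusted p under 0.05, beside 1214 of 13104 genes. The test of a genotype difference that changes with age passed for 0 of 7 genes in edgeR and in DESeq2, with 0 at an unadjusted p under 0.05, where 0.0336% of all genes passed.

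The PN and YA mice differ in age and in cohort, which cannot be told apart. From PN to YA, Wwtr1 and Ajuba fell in both genotypes and no member rose, which is 2 of 7 in Ehmt2+/+ mice, where 17.5% of all genes passed and 10.2% as lower, and 2 of 8 in Ehmt2fl/fl mice, where 20.8% passed and 13.2% as lower. The groups share no library between the genotypes, but both comparisons carry the same difference of cohort. A count of 2 genes beside these shares describes Wwtr1 and Ajuba, not the 9 genes as a set. Wwtr1 was at 19.3, 21.4 and 22.1 CPM in PN and 9.20 and 8.93 CPM in YA Ehmt2+/+ mice, and at 26.3, 26.3 and 30.4 CPM and 12.9, 9.23 and 12.0 CPM in Ehmt2fl/fl mice. The ages did not overlap, and the log2 differences were -1.20 ± 0.20 (FDR 0.00289) and -1.22 ± 0.18 (FDR 0.000826). Ajuba was at 7.24, 4.59 and 6.08 CPM in PN and 1.94 and 2.33 CPM in YA Ehmt2+/+ mice, and at 9.93, 5.51 and 9.97 CPM and 4.41, 3.17 and 2.18 CPM in Ehmt2fl/fl mice. Its log2 differences were -1.47 ± 0.39 (FDR 0.0233) and -1.34 ± 0.32 (FDR 0.00988), and the first was lost without YA Ehmt2+/+ replicate 1 (FDR 0.140). Yap1 differed by 0.25 ± 0.21 and -0.02 ± 0.19 and did not pass. Tead1 in Ehmt2+/+ mice, at 0.52 ± 0.46, passed as higher only without PN replicate 1 (1.01, FDR 0.0884). Axl and Lats2 in Ehmt2fl/fl mice had log2 differences of -0.94 ± 0.23 (FDR 0.0103) and -0.81 ± 0.22 (FDR 0.0185), under 2-fold, and passed when 1 library was left out, Axl without PN replicate 2 (-1.17) and Lats2 without YA replicate 1 (FDR 0.0171).

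Among other targets 5 of 16 fell with age in Ehmt2+/+ mice, where 10.2% of all genes did. In Ehmt2fl/fl mice 7 of 16 fell, where 13.2% of all genes did, and none rose in either. Both were led by Rbms3 (-1.88 ± 0.27 and -1.99 ± 0.23) and Ccdc80 (-1.82 ± 0.35 and -2.03 ± 0.30), genes expressed in mesenchyme. Ccn1 in Ehmt2+/+ mice (-1.53 ± 0.44, FDR 0.0327) was lost without either YA library (FDR 0.106 and 0.194). Tead2 rose by 1.21 ± 0.25 and 1.75 ± 0.23, and was under 2-fold in Ehmt2+/+ mice without YA replicate 1 (0.83), while Wtip, a LIM protein related to AJUBA, differed by -2.49 ± 0.28 and -1.33 ± 0.22. Of 12 fibroblast and stellate cell markers 9 fell with age in each genotype, their summed level going from 2444 to 6508 CPM in PN to 740 to 1480 CPM in YA mice. All 4 tested mesothelial markers fell in both genotypes. The part of these cells in the fall of Wwtr1 and Ajuba was not tested. Scaled by library totals, the median of all genes moved by -1.72 and -2.06 with age, by 1.55 and 2.38 with caerulein and by 0.81 to 0.84 with genotype after caerulein. Relative to that median, Wwtr1 differed with age by -1.19 and -1.16 and Ankrd1 with genotype by 4.72 and 5.22. Yap1 was at 0.21 and 0.04 with age and at -0.17 and -0.05 with genotype relative to it. Not taken relative to the median, Yap1, Tead1 and Amotl2 had the sign of the shift.

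Genes with a pattern like these were sought by Pearson correlation of log2(CPM + 0.5) over the 22 libraries, which differ in depth and in long-short balance, among 9221 or 9222 genes with a mean of at least 5 CPM. Axl was most like Pdgfra, a receptor of fibroblasts (r = 0.943, and 0.891 with group means removed), Itpripl2 (0.941 and 0.946) and Loxl1, a collagen cross-linking enzyme (0.937 and 0.915). Wwtr1 was most like Lix1l (0.946), Prrx1, a mesenchymal transcription factor (0.943), and Fkbp10, a collagen chaperone (0.938), with 0.626 to 0.677 within groups. Ajuba was most like Col18a1 (0.925 and 0.721), Gja1 (0.902 and 0.449) and Pard6b (0.897 and 0.756). Genes most like Tead1 included Zfp609 (0.954 and 0.964) and Rreb1 (0.949 and 0.952), so its likeness was as strong among mice of the same group. Amotl2 behaved in the same way with Chst12, Lrrc14 and App (0.919 to 0.932, and 0.926 to 0.948 within groups). Yap1, which varied least, had 0.820 with Lman2l (0.906 within groups), 0.813 with Mta1 (0.894) and 0.809 with Ik (0.848). The first of Lats2, Gm49361 (0.929), overlaps Lats2 exons on the same strand, so reads of the shared stretch cannot be told apart even by strand. That limit holds for every Lats2 level given here. Yap1 overlaps Gm20416 on the opposite strand, and their shared reads cannot be told apart where the counting is not stated to use strand. Next for Lats2 were Itpripl2 (0.894 and 0.526) and Ermp1 (0.876 and 0.642). Ankrd1 and Tead4 lacked counts in some libraries and were left out.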

How the data were processed

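The authors sequenced poly(A) RNA of whole pancreas (TruSeq RNA v2, not stated to keep strand), mapped it to GRCm38.p6 and counted reads per gene with the MapRseq3 workflow. The deposited counts per gene were used, and the deposited RPKM, fold change and p-value columns of the authors' edgeR 3.28.1 comparisons were not. Each of the 6 deposited comparisons lists only genes above its own filter. Values of a library agreed between them in all 134862 cases compared, so a gene left out of 1 was taken from another. Gene length is the deposited one. Genome positions are from GENCODE vM21, and promoters and their coordinates from RefSeq on GRCm38.p6.

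Counts were tested in R 4.3.3 with edgeR 4.0.16 (TMM, filterByExpr at min.count 10 and min.total.count 15, glmQLFTest), in 3 models of 4 groups each: untreated Pdx1-Cre, Pdx1-Cre with and without caerulein, and caerulein with both drivers. Genes without counts in all groups of a model were fitted in the compared groups alone. The thresholds were an FDR of 0.1 and a log2 difference of 1 in size. Groups of 2 to 4 mice share the spread among genes. The CPM were scaled over all 22 libraries and 11791 common genes. The 9 genes, the pathway lists (targets, partners and kinase core) and the marker lists were chosen with earlier results of these data known. Named genes outside the 9 are those of each list with the lowest FDR, up to 4 a list and comparison. Alternatives were RLE factors, no filter, DESeq2 1.42.0, compared groups alone, library totals, TMM without digestive and mitochondrial genes, sex as a covariate and each library left out, and the long-short balance as a covariate was chosen after seeing the data. The fits were tested on simulated data. For likeness, 1 gene that the rule would name is not reported here. The labels name single animals, so the tests measure the spread between mice. Tables were made in Python 3.11.15 with pandas 2.3.3 and figures with matplotlib 3.10.9.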

Additional observations from a re-analysis of the deposited data

Results flagged for a closer look

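F3 and Tead2 met the test for a caerulein response that differed between the genotypes with Pdx1-Cre. For F3 the difference of the log2 differences was 2.24 ± 0.39 (FDR 0.0374) and for Tead2 it was -1.62 ± 0.36 (FDR 0.0886). The call of Tead2 was lost with sex as a covariate (FDR 0.311), with the long-short balance as a covariate (FDR 0.195) and without any of 7 single libraries (FDR 0.104 to 0.305). In the 4 treated Pdx1-Cre Ehmt2+/+ mice, the 1 group large enough for it, no library stood apart by Dixon's test in any of the 13 genes looked at.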

How the results depend on the processing

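No paired analysis was possible because the labels name animals and give the groups no shared replicate numbers. Without the filter on low counts as many genes passed in every comparison. In DESeq2 4 members passed with genotype after caerulein and Pdx1-Cre and 4 with caerulein in Ehmt2fl/fl mice. Counts of members passing that moved by more than 1.5 times are these. At PN 1 passed in DESeq2, under library totals and with the long-short balance as a covariate (0 to 1 with a library left out). With P48-Cre after caerulein 2 passed in DESeq2, and with Pdx1-Cre 1 passed with sex as a covariate. Under library totals 7 and 8 passed with age in Ehmt2+/+ and Ehmt2fl/fl mice, 6 and 9 with caerulein, 2 in the genotype by caerulein term, and 8, 5 and 7 with genotype after caerulein for Pdx1-Cre, P48-Cre and both. With 1 library left out, 1 to 3 passed with age in Ehmt2+/+ mice, 0 to 1 with caerulein in Ehmt2+/+ and 3 to 5 in Ehmt2fl/fl mice, and 1 to 3 with genotype after caerulein and Pdx1-Cre. Signs turned under library totals for Yap1 (-1.51), Tead1 (-1.25), Amotl2 (-1.76), Tead2 (-0.56) and Wwc1 (-0.73) with age in Ehmt2+/+, Amotl2 (-1.73) and Tead2 (-0.29) with age in Ehmt2fl/fl, Amotl2 (1.46), Wwc1 (0.32) and Wwc2 (0.44) with caerulein in Ehmt2+/+ and Wwc1 (1.25) in Ehmt2fl/fl mice, where that scaling moves all genes. Of 590 differences of the 9 genes under the other alternatives, 3 lost a call, 5 gained one and 0 reversed. With a library left out, 7 of 677 lost a call, 6 gained one and 0 reversed. Among differences that passed in neither fit, 20 and 36 changed sign. Counts over all genes that moved by more than 1.5 times were, at PN, 229 in DESeq2 and 268 with the balance against 91, at YA 169 in DESeq2, 69 in the compared groups alone, 165 with sex and 320 with the balance against 43, for genotype by age 52 in DESeq2 and 142 with the balance against 4, for genotype by caerulein 560 in DESeq2, 19 with sex and 40 with the balance against 169, with genotype after caerulein 336 with sex for Pdx1-Cre against 1076 and 507 in the compared groups alone for P48-Cre against 879. Under library totals 4540 to 13210 passed with age, with caerulein or with genotype after caerulein, and 2097 for genotype by caerulein. Leaving out 1 library gave 32 to 584 at PN, 8 to 274 at YA, 1345 to 3204 with age in Ehmt2+/+ mice, 0 to 148 for genotype by age, 10 to 642 for genotype by caerulein, and 162 to 1198 and 94 to 752 with genotype after caerulein for Pdx1-Cre and P48-Cre. Low counts limit Ankrd1 in Ehmt2+/+ and in YA Ehmt2fl/fl mice, F3 in YA mice and Tead4 throughout.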
